A study of Mus musculus with 4 samples.

Results

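The genes described here are 10 genes of the lung epithelium, Sftpa1, Sftpb, Sftpc, Sftpd, Scgb1a1, Ager, Cldn18, Napsa, Lamp3 and Slc34a2. They are 10 of the 23282 genes in the heart mRNA-seq data, of which 17174 had at least 1 read. They were chosen by symbol as a check on lung tissue in the heart samples, with earlier results of these data known, and each symbol stood for 1 value per library. Because the check was set up on their levels in the 4 libraries, these levels and the differences between them are given as a description, with no test. All 10 had reads in every heart library, except Sftpd with 0 in normal exercise, and they summed to between 23.0 and 153 RPM, that is reads for each 1000000 reads of a library. On the deposited scale all 10 were highest in the heart of the cancer exercise group and lowest in the heart of the normal exercise group, while Napsa in RPM was highest in normal control.

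The hearts came from male mice of the CDF1 strain, labelled post natal day 28, in 4 groups of 10 mice. The study bought its mice at 4 weeks of age and took tissues at the end of the experiment. The labelled day is thus the age at purchase, and the hearts came from older mice. Mice of the normal control group, E(−)T(−), neither trained nor carried a tumor, and mice of the normal exercise group, E(+)T(−), ran on a treadmill at high intensity. Mice of the cancer control group, E(−)T(+), did not train and received CT26 cells, a mouse colorectal carcinoma line, through the tail vein, and mice of the cancer exercise group, E(+)T(+), received the same cells and ran. Cells given into the blood seed several organs, so the T(+) groups model spread disease and not a single bowel tumor. The labels write these groups as E-&T-, E+&T-, E-&T+ and E+&T+. Each group had 1 heart library, and how many hearts went into it is not given in the sources used here.

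The alveoli of the lung are lined by alveolar type 1 cells, thin cells through which gas is exchanged, and by alveolar type 2 cells, which store surfactant in lamellar bodies and secrete it. Surfactant is a film of lipids and proteins that lowers surface tension and keeps the alveoli from collapsing. The small airways are lined by club cells, which secrete secretoglobins, and by ciliated cells. The heart wall has no such epithelium, so transcripts that are largely restricted to these cells serve as markers of lung tissue.

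NKX2-1, a transcription factor of the lung epithelium, binds a core motif with the letters CTCAAG and activates surfactant genes. The 250 bases upstream of the annotated start were taken from RefSeq (GRCm38.p6) for the 6 of the 10 genes that matched, Sftpa1, Sftpb, Ager, Cldn18, Lamp3 and Slc34a2, in 7 windows. The CTCAAG letters, searched on both strands, were found in the windows of 2 genes, Sftpa1 and Sftpb, and in 13.3% of 32817 windows of the same length. The TATA box letters TATAAA, also searched on both strands, were found in the window of Sftpa1 and in 12.4% of all windows. The windows of Sftpa1 (chr14:41131538-41131787, plus strand) and Sftpb (chr6:72304360-72304609, plus strand) are shown because they hold these letters, which are in capitals. A match describes the letters only.
Sftpa1: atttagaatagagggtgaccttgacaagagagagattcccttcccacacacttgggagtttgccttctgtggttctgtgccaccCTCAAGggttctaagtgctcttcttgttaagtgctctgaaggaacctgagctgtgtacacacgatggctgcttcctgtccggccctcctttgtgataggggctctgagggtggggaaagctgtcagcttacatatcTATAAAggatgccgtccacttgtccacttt
Sftpb: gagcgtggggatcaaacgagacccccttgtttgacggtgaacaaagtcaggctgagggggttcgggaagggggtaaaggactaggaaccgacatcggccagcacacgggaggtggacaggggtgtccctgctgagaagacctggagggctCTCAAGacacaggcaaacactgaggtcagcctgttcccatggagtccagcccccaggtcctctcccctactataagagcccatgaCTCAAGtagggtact

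The 10 genes lie on 8 chromosomes of GRCm38. Sftpa1 (chr14:41131782-41136452) and Sftpd (chr14:41172214-41185149), both collectins, lie close together on chromosome 14, which also holds Sftpc (chr14:70520949-70524081). The other genes are Sftpb (chr6:72304610-72314371), Scgb1a1 (chr19:9083636-9087958), Ager (chr17:34597862-34600936), Cldn18 (chr9:99689461-99717267), Napsa (chr7:44572380-44586862), Lamp3 (chr16:19653378-19706375) and Slc34a2 (chr5:53038081-53071664). Cldn18, Napsa and Slc34a2 each overlap an antisense gene in the annotation, and whether the counting used strand is not given in the sources used here, so reads of these genes and their antisense partners cannot be told apart.

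The libraries held between 6595474 and 11545858 reads of genes, recovered as whole reads from the deposited log2 values. QuantSeq libraries give 1 read per transcript from its 3′ end, so levels of different genes can be compared without a correction for length. Cardiomyocyte markers were abundant in all 4 hearts, with between 379514 and 521613 reads per library summed over 10 genes such as Myh6 and Tnnt2. The cancer exercise library stood apart from the others, with 37.3% of its reads in globin genes, against 7.86% to 8.76% in the other libraries. With 1 library per group, differences have no replicate check, and the 95% intervals given here are Clopper-Pearson intervals that cover counting error only. They treat reads as independent, and since PCR copies are not independent molecules they can be too narrow even for that error.

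The surfactant protein genes were low in all 4 hearts. Sftpc encodes the hydrophobic surfactant protein C and is the marker most specific to alveolar type 2 cells. It had 58 reads in normal control, 38 in normal exercise, 87 in cancer control and 292 in cancer exercise, which are deposited log2 levels of 6.08, 5.14, 6.28 and 8.32. The cancer exercise heart was far above the other 3. Sftpa1, a collectin that binds microbes in the alveolus, had 20, 12, 32 and 100 reads in the same order, at log2 levels of 4.59, 3.55, 4.86 and 6.78. Its order over the libraries was that of Sftpc. Sftpb, the surfactant protein that is essential for spreading the lipid film, had 22, 6, 40 and 60 reads, at log2 levels of 4.72, 2.65, 5.18 and 6.05. Sftpb was lowest in normal exercise, and its T(+) libraries lay nearer to each other than those of Sftpc. Sftpd, the second collectin, had 10, 0, 21 and 31 reads, at log2 levels of 3.65, 0, 4.29 and 5.11. The 0 in normal exercise allows up to 3 reads of the library.

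The genes of surfactant processing and lamellar bodies had fewer reads. Napsa encodes napsin A, an aspartic protease that matures surfactant proteins B and C, and had 11 reads in normal control, 8 in normal exercise, 15 in cancer control and 13 in cancer exercise. Its log2 levels of 3.77, 3.03, 3.83 and 3.92 spanned 0.90, the smallest range of the 10 genes. Lamp3, a membrane protein of lamellar bodies that is also made by mature dendritic cells, had 2, 1, 3 and 11 reads, at log2 levels of 1.76, 0.87, 1.84 and 3.68. Slc34a2, the sodium phosphate cotransporter of alveolar type 2 cells, had 5, 1, 2 and 16 reads, at log2 levels of 2.76, 0.85, 1.40 and 4.19. Both were highest in cancer exercise, and both had 5 reads or fewer in each of the other 3 libraries.

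Of the alveolar type 1 markers, Ager encodes the receptor for advanced glycation end products, which these cells make in abundance, and Cldn18 encodes a claudin of their tight junctions. Ager had 28 reads in normal control, 20 in normal exercise, 52 in cancer control and 78 in cancer exercise, at log2 levels of 5.05, 4.24, 5.55 and 6.43. Cldn18 had 2, 1, 9 and 44 reads, at log2 levels of 1.81, 0.83, 3.14 and 5.60. Cldn18 was nearly absent from both T(−) libraries and had most of its reads in cancer exercise. Scgb1a1 encodes the secretoglobin that club cells release into the airway, and it was the most abundant of the 10 genes in each library. It had 407 reads in normal control, 108 in normal exercise, 412 in cancer control and 1123 in cancer exercise, at log2 levels of 8.87, 6.62, 8.51 and 10.26. Among all genes of a library ranked by level, Scgb1a1 stood at place 2409, 7096, 3046 and 1030. In the order of the mean log2 level the 10 genes ran Scgb1a1, Sftpc, Ager, Sftpa1, Sftpb, Napsa, Sftpd, Cldn18, Slc34a2 and Lamp3.

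**Figure D1:**
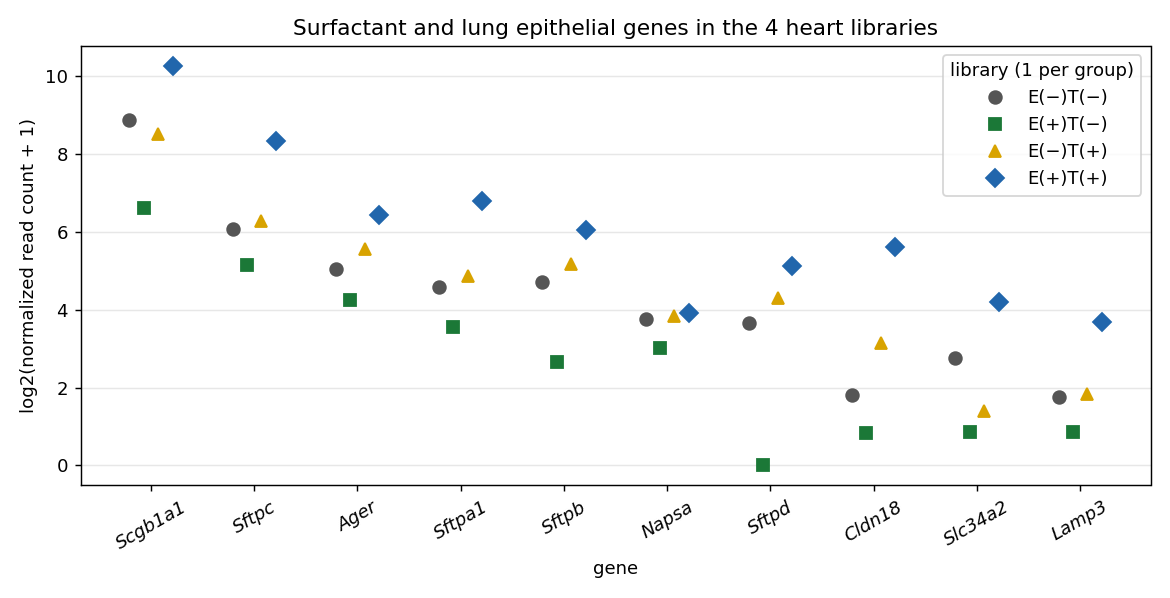
Deposited log2(normalized read count + 1) of the 10 lung epithelial genes (horizontal axis, by mean level) in the 4 heart libraries, 1 point per library. On this scale, though not for Napsa per library size, the cancer exercise point E(+)T(+) is the highest and the normal exercise point E(+)T(−) the lowest for all 10 genes, from Scgb1a1 at 10.26 and 6.62 to Napsa at 3.92 and 3.03.

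Summed over the 10 genes, the normal control library held 565 reads, or 85.7 RPM (95% interval 78.7 to 93.0). The normal exercise library held 195 reads, or 23.0 RPM (19.9 to 26.5). The cancer control library held 673 reads, or 70.6 RPM (65.4 to 76.1). The cancer exercise library held 1768 reads, or 153 RPM (146 to 160), above the rest even with its many globin reads in the total. No RPM interval overlapped another, but for normal control and cancer control this depends on the scaling. At the fitted library sizes their sums differed by -0.13 on the log2 scale, with an interval of -0.29 to 0.04. Counted outside the 12 genes that took over 1% of a library, the sums were 109 RPM in normal control, 28.9 in normal exercise, 90.3 in cancer control and 281 in cancer exercise. In bulk tissue, fewer cells of a type and less RNA per cell cannot be told apart.

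The mix of the 10 genes was not the same in every library. Scgb1a1 made up 72.0% of their reads in normal control (95% interval 68.1 to 75.7), 55.4% in normal exercise (48.1 to 62.5), 61.2% in cancer control (57.4 to 64.9) and 63.5% in cancer exercise (61.2 to 65.8). Per read of Sftpc there were 7.02 reads of Scgb1a1 in normal control (5.32 to 9.41), 2.84 in normal exercise (1.95 to 4.23), 4.74 in cancer control (3.75 to 6.04) and 3.85 in cancer exercise (3.38 to 4.39). The airway gene and the alveolar gene therefore did not keep 1 ratio, and the interval of normal control lay above those of normal exercise and cancer exercise. Sftpa1 kept nearly the same ratio to Sftpc, at 0.345, 0.316, 0.368 and 0.342 reads per Sftpc read in the same order of libraries. For Sftpb the ratio was 0.379 (0.221 to 0.629), 0.158 (0.055 to 0.376), 0.460 (0.308 to 0.676) and 0.205 (0.153 to 0.272), higher in cancer control than in cancer exercise. Ager likewise had 0.598 reads per Sftpc read in cancer control (0.416 to 0.852) and 0.267 in cancer exercise (0.205 to 0.344). Napsa had a smaller share of the 10 genes' reads in cancer exercise, 0.74% (0.39 to 1.25), than in normal exercise, 4.10% (1.79 to 7.92), and Cldn18 a larger one in cancer exercise, 2.49% (1.81 to 3.33), than in normal control, 0.35% (0.043 to 1.27).

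**Figure D2:**
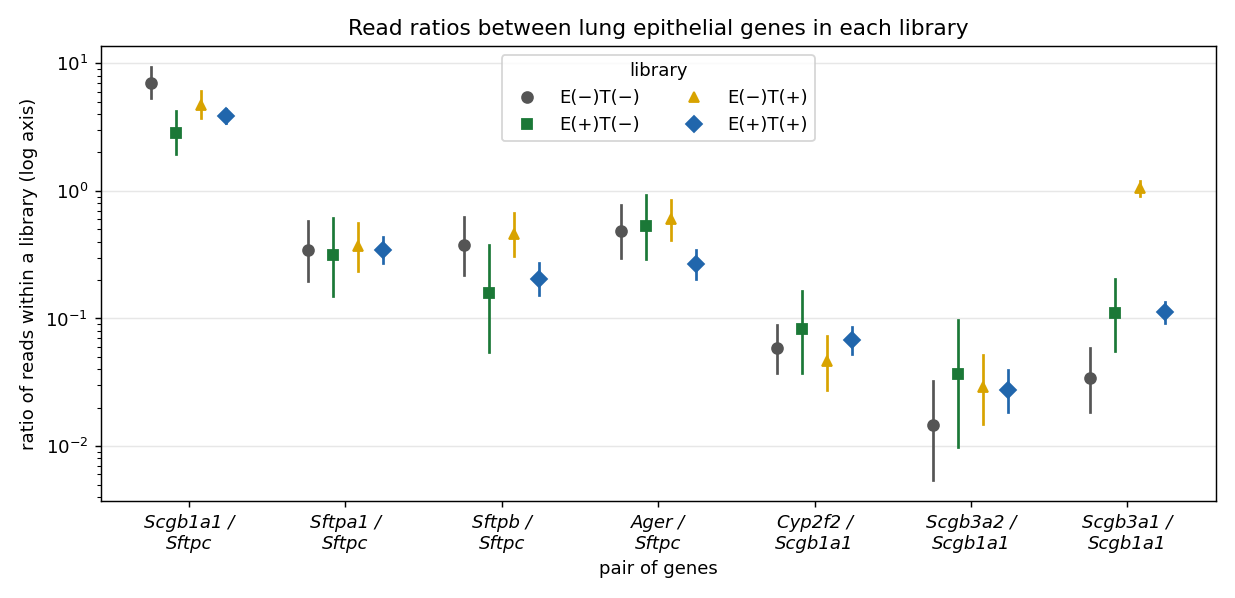
Reads of one gene per read of another within each heart library, on a log axis, with 95% counting intervals as vertical lines and 1 point per library. The ratio of Sftpa1 to Sftpc lies between 0.316 and 0.368 in all 4 libraries, while that of Scgb3a1 to Scgb1a1 runs from 0.034 in normal control to 1.05 in cancer control.

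Normal exercise was set against normal control for the effect of high-intensity exercise in normal mice. Fold changes are differences of the deposited log2(normalized read count + 1) values, a scale that shrinks the differences of sparsely read genes. A gene is called here where its fold change was at least 2 and its normalized read count at least 4 in 1 of the 2 libraries. The study filtered its DEGs on the same fold and read count, and that 1 of the 2 libraries must reach the count is a choice made here. All 10 genes were lower in normal exercise, and the sum of the 10 differed by -1.88 on the log2 scale (95% interval -2.12 to -1.64), a 3.69-fold lower level. Of the 8 genes that passed the count minimum, 5 were called lower, Sftpa1, Sftpb, Sftpd, Scgb1a1 and Slc34a2, and none higher, beside 6.4% of 13937 genes called lower and 5.88% called higher. Scgb1a1 differed by -2.25 (-2.58 to -1.95) and Sftpb by -2.07 (-3.81 to -0.87). Sftpd, with 0 reads in normal exercise, was 4.22-fold lower against a floor of 3 reads in that library, and with the counting error of both libraries its 95% interval ran up to -1.51 on the log2 scale. Sftpa1, at -1.04 (-2.24 to 0.02), and Slc34a2, at -1.91 (-8.23 to 0.50), were called, but their intervals included 0. Sftpc at -0.94 (-1.58 to -0.34), Ager at -0.81 (-1.73 to 0.05) and Napsa at -0.74 (-2.32 to 0.65) did not reach the fold required. Cldn18 and Lamp3 had 2 reads or fewer in both libraries and are given no fold. The median was -1.01 over all 10 genes and -1.47 over the 8 that passed the count minimum, beside 0.002 over all 13937 genes that passed it. Without Scgb1a1 the sum of the other 9 differed by -1.22 (-1.60 to -0.82).

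Cancer control was set against normal control for the effect of the tumor without exercise. The sums were close, with a log2 difference of -0.13 (95% interval -0.29 to 0.04). The median was 0.23 over the 10 genes and 0.27 over the 9 that passed the count minimum. Of the 9 genes that passed the count minimum, Cldn18 was called higher and Slc34a2 lower, beside 14.6% of 14317 genes called higher and 13.1% called lower. Cldn18 had 9 reads against 2, a difference of 1.33 (-0.48 to 5.04), and Slc34a2 had 2 against 5, a difference of -1.35 (-5.09 to 0.91). Both intervals included 0. Scgb1a1 was lower by a small amount, at -0.36 (-0.56 to -0.16), with an interval that excluded 0. The surfactant protein genes lay between 0.20 for Sftpc (-0.29 to 0.71) and 0.64 for Sftpd (-0.46 to 1.94), all with intervals that included 0. Ager differed by 0.50 (-0.17 to 1.23) and Napsa by 0.07 (-1.15 to 1.34), or by -0.08 with scaling to library size. Lamp3, with 3 reads or fewer in both libraries, is given no fold. Without Scgb1a1 the direction of the sum turned, to 0.33 (0.06 to 0.64).

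Cancer exercise was set against cancer control for the effect of exercise in tumor-bearing mice. All 10 genes were higher in cancer exercise, Napsa only before scaling to library size, and all 10 passed the count minimum. The sum was higher by 1.70 on the log2 scale (95% interval 1.57 to 1.83), or 3.25-fold. Called higher were 6 genes, Sftpa1, Sftpc, Scgb1a1, Cldn18, Lamp3 and Slc34a2, and none was called lower, beside 9.39% of 14363 genes called higher and 10% called lower. Sftpc differed by 2.04 (1.71 to 2.42), Sftpa1 by 1.92 (1.37 to 2.58) and Scgb1a1 by 1.75 (1.59 to 1.92). Slc34a2, with 16 reads against 2, differed by 2.78 (1.22 to 6.47), Cldn18 by 2.46 (1.55 to 3.82) and Lamp3, with 11 reads against 3, by 1.84 (0.26 to 4.67). Sftpb at 0.87 (0.29 to 1.51), Sftpd at 0.82 (0.03 to 1.74) and Ager at 0.88 (0.37 to 1.43) were higher by less than the fold required, and Napsa differed by 0.09 (-1.09 to 1.28), or by -0.44 with scaling to library size. The median over the 10 genes was 1.80, beside -0.01 over all 14363 genes that passed the count minimum. With the recovered reads scaled to library size, globin included, the sum differed by 1.12 and the median of all genes by -0.60. With that scaling Sftpc differed by 1.46, Sftpa1 by 1.34, Scgb1a1 by 1.17 and Ager by 0.30.

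Cancer exercise was also set against normal exercise for the effect of the tumor in trained mice, and here the gap was widest. The sum of the 10 genes was higher by 3.45 on the log2 scale (95% interval 3.24 to 3.68), an 11-fold difference. Called higher were 9 of the 10 genes, all but Napsa, and none was called lower, beside 12% of 14289 genes called higher and 11.1% called lower. Scgb1a1 differed by 3.64 (3.37 to 3.95), Sftpb by 3.41 (2.39 to 5.10), Sftpa1 by 3.23 (2.46 to 4.33), Sftpc by 3.18 (2.72 to 3.74) and Ager by 2.18 (1.51 to 3.02). Sftpd was 12.5-fold higher against a floor of 3 reads in normal exercise, and with the counting error of both libraries its 95% interval began at 3.26 on the log2 scale. Cldn18, Slc34a2 and Lamp3 each had 1 read in normal exercise and differed by 4.78 (3.18 to 11.07), 3.33 (1.59 to 9.66) and 2.81 (0.95 to 9.16). Napsa differed by 0.90 (-0.41 to 2.45). The median was 3.28, beside -0.01 over all 14289 genes that passed the count minimum, and with scaling to library size the sum differed by 2.73 and the median of all genes by -0.74. The 4 comparisons share libraries, so that a low or high library enters several of them.

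**Figure D3:**
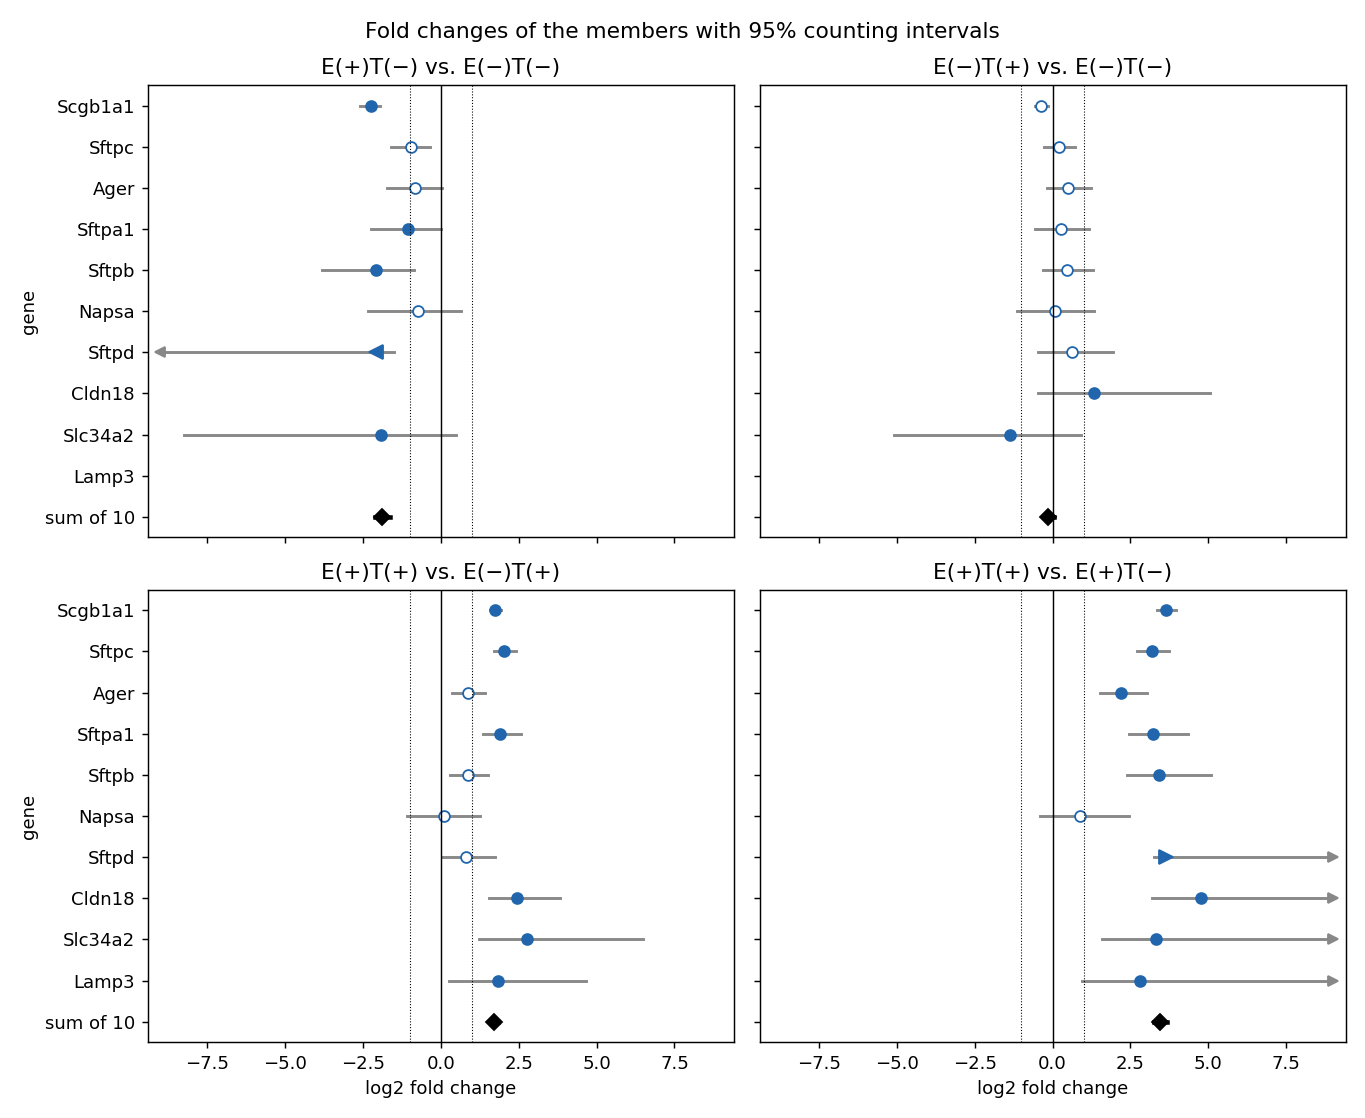
Log2 fold changes of the 10 genes and of their sum in the 4 comparisons, with 95% counting intervals as horizontal lines; filled points are genes called at a fold of at least 2, dotted lines mark that fold, blue triangles are values of Sftpd against a floor of 3 reads, grey arrowheads mark intervals that run past the axis, and genes with 3 reads or fewer in both libraries have no point. The sum lies at -1.88, -0.13, 1.70 and 3.45.

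Lists of other genes of the same cell types, without the 10, differed among themselves. These lists too were chosen with earlier results of these data known, so they are no independent check. Of 49 further genes of alveolar type 2, alveolar type 1, club and ciliated cells, 28 were above the count minimum for normal exercise vs. normal control. Of these, 2 were called higher and 4 lower, with a median of 0.06, beside 5.88% and 6.4% of all genes. For cancer control vs. normal control, 12 of 32 were called higher and 4 lower, with a median of 0.46, beside 14.6% and 13.1% of all genes. For cancer exercise vs. cancer control, 8 of 34 were called higher and 5 lower, with a median of 0.11, beside 9.39% and 10%. For cancer exercise vs. normal exercise, 11 of 32 were called higher and 3 lower, with a median of 0.19, beside 12% and 11.1%. Scaled to library size, the medians of the last 2 comparisons were -0.47 and -0.64, beside -0.60 and -0.74 over all genes with that scaling.

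Several genes with few reads had the order of the 10. Cyp2f2, a club cell cytochrome P450, had 24 reads in normal control, 9 in normal exercise, 19 in cancer control and 76 in cancer exercise. Its ratio to Scgb1a1 was 0.059, 0.083, 0.046 and 0.068, with intervals that overlapped in all 4 libraries. Sec14l3, listed with alveolar type 1 cells, had 16, 7, 19 and 74 reads, and Scgb3a2, a secretoglobin of club cells, had 6, 4, 12 and 31. Cxcl15, the chemokine lungkine of the lung epithelium, had 25, 8, 13 and 48 reads. Each of these was lowest in normal exercise and highest in cancer exercise, as the 10 genes were.

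Other genes of the lists had another order. Scgb3a1, a further airway secretoglobin, had 14 reads in normal control, 12 in normal exercise, 431 in cancer control and 126 in cancer exercise, and thus was highest in the cancer control heart, where Scgb1a1 had 412. Chil1, a chitinase-like protein that macrophages make as well, had 16, 10, 111 and 51 reads, again highest in cancer control. Abca3, the lipid transporter of lamellar bodies, had 57, 83, 66 and 64 reads and differed by at most 0.26 in size in the 4 comparisons. Etv5, a transcription factor that alveolar type 2 cells need, had 118, 188, 235 and 46 reads and was lowest in cancer exercise. The alveolar type 1 markers Hopx, with 1167, 1490, 1056 and 904 reads, Emp2, with 376, 546, 523 and 441, and Clic5, with 1180, 1305, 1252 and 656, are also made by heart cells and stood far above Ager. Ctsh, the protease cathepsin H, had 341, 540, 655 and 447 reads, Lyz1, a lysozyme, had 63, 114, 187 and 111, and Cbr2, a carbonyl reductase of club cells, had 575, 1023, 1527 and 880. Pdpn, podoplanin, a protein of alveolar type 1 cells and of lymphatic endothelium, had 174, 254, 492 and 233. All of these were highest in cancer control. Gprc5a had 15, 52, 71 and 65 reads, lowest in normal control. Akap5 with 1236 to 1630 reads, Aldh1a1 with 373 to 507, Gsta4 with 355 to 477, Dram1 with 25 to 48, Krt7 with 17 to 35 and the ciliated cell marker Cfap126 with 9 to 25 were called in none of the 4 comparisons. Aqp5, the water channel of alveolar type 1 cells, had 4, 4, 1 and 1 reads, Rtkn2 had 0, 3, 2 and 8, and Lpcat1, an enzyme of surfactant lipid synthesis, had at most 1.

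Of the ciliated cell markers, Foxj1, the master regulator of motile cilia, had 0 reads in normal control, 5 in normal exercise, 0 in cancer control and 1 in cancer exercise. Ccdc153 had 1 read in each T(−) library and 0 in each T(+) library. Tmem212 had 0, 0, 26 and 3 reads and Fam183b had 0, 0, 11 and 24, so that their reads were in the T(+) libraries alone. Tppp3, which is not restricted to ciliated cells, carried most of the list, with 363, 851, 212 and 336 reads.

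**Figure D4:**
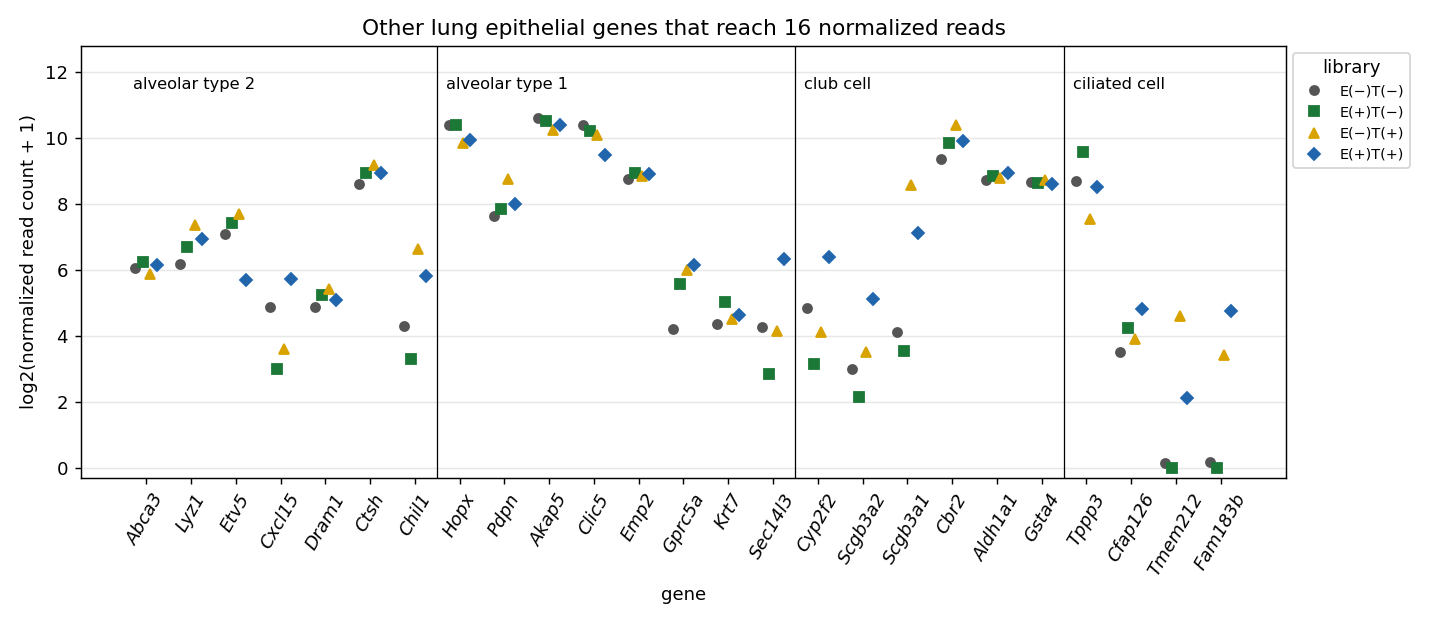
Deposited log2(normalized read count + 1) of the other lung epithelial genes that reached 16 normalized reads in at least 1 library, by cell type, with 1 point per heart library. Cxcl15, Sec14l3, Cyp2f2 and Scgb3a2 have cancer exercise at the top and normal exercise at the bottom, while Scgb3a1, Chil1 and Tmem212 are highest in cancer control and Etv5 is lowest in cancer exercise.

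Genes that control surfactant differed widely in level. Nkx2-1 had 0 reads in normal control, 1 in normal exercise, 0 in cancer control and 0 in cancer exercise, Foxa2 had 3, 0, 5 and 1, and Foxa1 had 1, 0, 0 and 2. These transcription factors of the lung epithelium were thus near 0 in each heart. Of the 12 genes of the list, 7 or 8 passed the count minimum in a comparison. In normal exercise vs. normal control none was called, beside 5.88% of all genes called higher and 6.4% lower. In cancer control vs. normal control 2 were called higher, beside 14.6% of all genes. In cancer exercise vs. cancer control 2 were called lower, beside 10%, and in cancer exercise vs. normal exercise 2 higher, beside 12%. Csf2rb, a receptor subunit for GM-CSF through which macrophages are driven to clear surfactant, had 11, 27, 156 and 110 reads, higher in both T(+) hearts than in both T(−) hearts. Its neighbor Csf2rb2 had 3, 6, 73 and 25 reads, and reads of these near-identical genes could have been divided in the counting. Csf2ra, the other subunit of that receptor, had 58 to 112 reads, Cebpa 116 to 144, Gata6 459 to 639 and Scap 131 to 202, and none of them was called in any of the 4 comparisons. Adgrf5, a receptor that holds surfactant levels down and is also made by endothelium, had 1694, 1261, 2360 and 1293 reads.

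Markers of other cells that lung or neighboring tissue could bring were set beside the 10 genes. Of the 11 general epithelial markers, 10 had reads, and their summed log2 level was 7.08 in normal control, 6.48 in normal exercise, 7.14 in cancer control and 7.39 in cancer exercise, on this scale lowest and highest in the same libraries as the 10 genes. Per library size they summed to 17.7, 11.6, 16.7 and 13.3 RPM, which is lowest in normal exercise again but highest in normal control. Epcam had 5, 2, 6 and 8 reads and Cdh1 had 2, 3, 3 and 13. The keratins had more reads. Krt8, with 16, 10, 34 and 17, and Krt18, with 30, 30, 65 and 52, were highest in cancer control. Krt19, with 58, 45, 34 and 49, was highest in normal control. The 12 alveolar macrophage markers, 11 of them with reads, summed to log2 levels of 9.58, 9.36, 10.52 and 9.57, highest in cancer control. Siglecf, which defines these cells, had 0, 0, 1 and 0 reads, while Marco had 1, 0, 376 and 11 and Mrc1, which heart macrophages also make, had 251, 353, 720 and 240. The lung capillary and mesenchyme list, all 12 of its genes with reads, summed to log2 levels of 12.59, 12.36, 12.52 and 13.00. Cd36, which heart cells also make, held most of these reads, with 4472, 4613, 5374 and 6173. Tmem100 had 74, 140, 265 and 285 reads. Sema3c, with 90, 159, 69 and 35, and Figf, with 39, 72, 81 and 18, were lowest in cancer exercise. Inmt, with 235, 323, 123 and 304, was lowest in cancer control. The 7 mesothelial genes summed to 8.24, 8.21, 8.66 and 8.29. The 8 thymus genes reached at most 34 reads in all, with Rag1 and Dntt at 0 in every library, and the 6 genes of airway basal cells and oesophagus at most 7. The part of these cells in the levels of the 10 genes was not tested.

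Markers of 2 other tissues moved with the 10 genes in some comparisons. The 8 fat markers, all with reads, summed to log2 levels of 10.70 in normal control, 9.43 in normal exercise, 9.39 in cancer control and 11.32 in cancer exercise. Against normal control, the fat list thus differed by -1.28 in normal exercise, where the 10 genes were lower too, and by -1.32 in cancer control, where their sum differed by -0.13. Cidea, a lipid droplet protein with 373, 461, 657 and 816 reads, held most of the fat reads in normal exercise and cancer control, and most other fat genes lay far lower in cancer control. The median over the 7 fat genes that passed the count minimum was -2.35 in normal exercise and -3.74 in cancer control, with 230, 96, 14 and 150 reads of Cidec and 52, 16, 0 and 76 of Plin1. Adipoq, the fat hormone adiponectin, had 317, 78, 76 and 356 reads, and Ucp1, which defines brown fat, had 0 reads in 3 libraries and 814 in cancer exercise. The 8 erythroid markers summed to 19.01, 18.96, 19.00 and 21.78, level in 3 libraries and higher in cancer exercise. All 8 were called higher there against cancer control, beside 9.39% of all genes, and against normal exercise, beside 12%. In normal exercise, where the 10 genes were lowest, the erythroid sum differed from normal control by -0.05. Myl7, a myosin light chain of the atria that was picked after its values were seen, had 650, 1896, 779 and 2079 reads, more in both E(+) hearts than in both E(−) hearts. The part of fat, blood and atrial tissue in the levels of the 10 genes was not tested.

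Among 11628 other genes whose mean reached 16 normalized reads, 835 (7.18%) were highest in cancer exercise and lowest in normal exercise, the order that all 10 genes had on this scale, though not Napsa per library size. The means of Sftpd, Cldn18, Napsa, Slc34a2 and Lamp3 lay below that minimum. The shares of other genes given here are a description and no test, since the check was set up on these same levels. The sum of the 10 genes spanned 3.45 on the log2 scale. The 11628 other genes, taken singly, had a median range of 0.78, and 1.93% of them spanned at least as much as the sum. Taken singly, the 10 genes spanned between 0.90 for Napsa and 5.11 for Sftpd. The nearest genes to the summed pattern, by Euclidean distance between the 4 centred log2 values, were Apoc1 at 0.37, Sec14l3 at 0.48, Gbp10 at 0.53, Cyp2f2 at 0.58 and Fam132b at 0.62. These 5 included the lung genes Sec14l3 and Cyp2f2 beside genes best known elsewhere. Apoc1, an apolipoprotein, had 28, 10, 45 and 121 reads, and Fam132b, the erythroid hormone erythroferrone, had 7, 4, 13 and 38. Of the 10 genes themselves, Scgb1a1 lay at 0.26, as the sum holds mostly its reads, Sftpa1 at 0.62, Sftpb at 0.66, Sftpc at 0.71 and Lamp3 at 0.74. Ager at 1.01 and Slc34a2 at 1.02 followed, and Cldn18 at 1.62, Napsa at 1.83 and Sftpd at 1.85 were farthest.

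**Figure D5:**
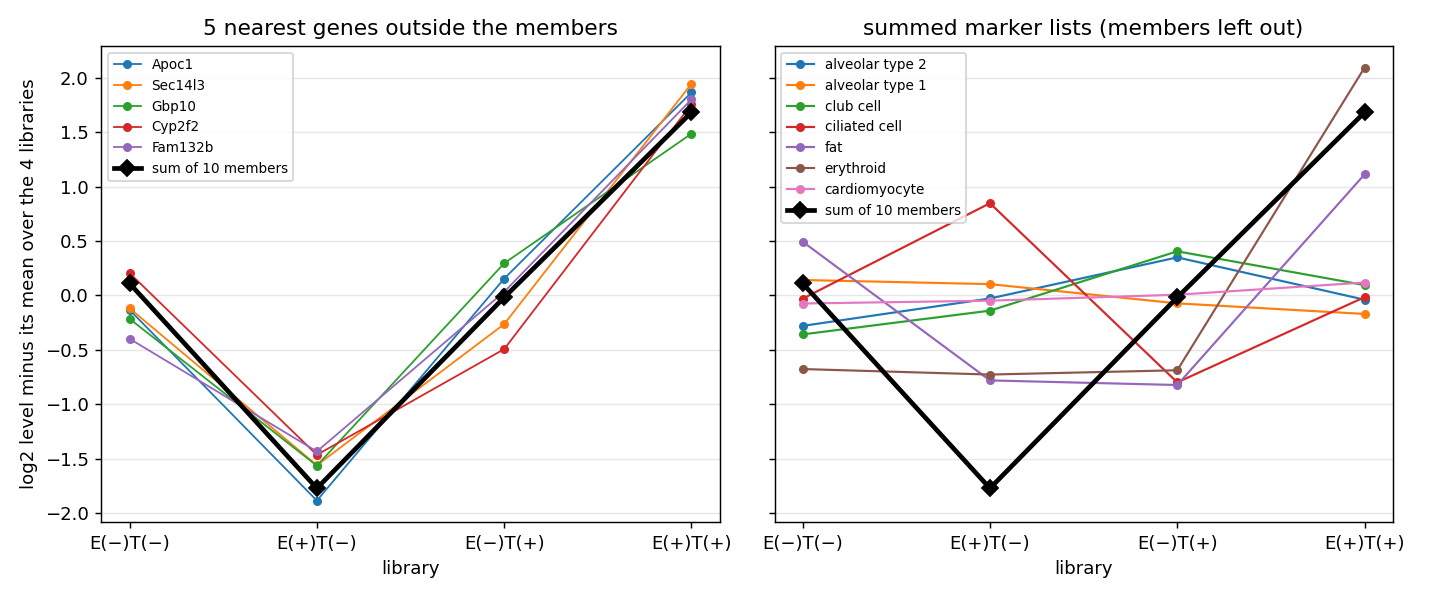
Log2 level minus its mean over the 4 heart libraries for the sum of the 10 genes (black) beside, on the left, the 5 nearest genes and, on the right, summed marker lists without the 10 genes. The black line drops to its lowest point in normal exercise and rises to its highest in cancer exercise, the erythroid list is level in the first 3 libraries and the fat sum is at 9.39 in cancer control and 9.43 in normal exercise, most of it reads of Cidea.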

How the data were processed

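The heart libraries of the 4 groups were analysed, 1 per group, so samples were grouped by their labels and no test across groups was run. The authors made QuantSeq 3′ libraries, aligned the reads with Bowtie2 and counted them per gene with bedtools on mm10, as the submitters' processing notes and the study's methods name them. The authors normalized these reads with the quantile approach of edgeR, and the deposited values are on a log2 scale, as log2(normalized read count + 1). Versions are not given in the sources used here.

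Whole reads were recovered from the deposited values by a fit of the 4 library sizes and of 1 dispersion, 0.149, to quantile-adjusted counts. The fit returned every deposited value to within 0.000625, and 100% of 25460 values of at least 5 and under 100 reads lay within 0.1 of a whole read. Recovered totals were 6595474 reads for the normal control, 8477117 for the normal exercise, 9532886 for the cancer control and 11545858 for the cancer exercise library.

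Fold changes are differences of deposited values, and ratios of reads have 95% Clopper-Pearson intervals at the fitted sizes. Where a library held 0 reads, the fold was computed from 3 reads in that library, beside the interval. The 10 genes and all lists were chosen with earlier results of these data known. Besides the 10 genes, the text names genes of the lung epithelial and surfactant lists that reached 16 normalized reads in at least 1 library or stood among the first 3 of their list, some of the first and most abundant genes of the other lists, and the 5 genes nearest in pattern. Of the 10 nearest genes first intended, the others are not reported here. Lists hold markers of alveolar type 2, alveolar type 1, club and ciliated cells, surfactant regulation, general epithelium, alveolar macrophages, lung capillaries and mesenchyme, mesothelium, thymus, airway basal cells and oesophagus, fat, erythroid cells and cardiomyocytes. Of the mesothelial list, Muc16 was not analysed here. Genes of the lists that are not named enter the counts and sums only. Gene positions are from GENCODE on GRCm38, the assembly also called mm10, and upstream windows from RefSeq on GRCm38.p6. Alternatives changed how libraries were scaled, the minimum of reads, the pseudocount, the genes in the sum and the depth. Lung and muscle libraries were not used here. Computations were run in Python (version 3.11.15), with scipy (1.17.1), numpy (2.4.6) and pandas (2.3.3), and figures were drawn with matplotlib (3.10.9).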

Additional observations from a re-analysis of the deposited data

Results flagged for a closer look

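On the deposited scale all 10 genes were lower with exercise in hearts without tumor and higher with exercise in hearts with tumor. Napsa was higher in the second case only before scaling to library size. Without tumor, the counting intervals of only 4 of the 10 genes excluded 0. Cldn18 and Lamp3 had 1 read against 2 there and are given no fold. With tumor, the intervals of 9 genes excluded 0, all but that of Napsa. The sum and the 3 genes that were called in both comparisons are given here, with 1 library in each group. The sum of the 10 genes differed by -1.88 on the log2 scale for normal exercise vs. normal control and by 1.70 for cancer exercise vs. cancer control, a gap of 3.58. Scgb1a1, the club cell secretoglobin, differed by -2.25 and 1.75, a gap of 4.00. Sftpa1, a surfactant collectin, differed by -1.04 and 1.92, a gap of 2.96. The first of these rests on 12 reads against 20, and its interval of -2.24 to 0.02 included 0. Slc34a2, the phosphate cotransporter of alveolar type 2 cells, differed by -1.91 and 2.78, a gap of 4.69, with 1 and 2 reads in its lowest libraries. Its interval without tumor, -8.23 to 0.50, also included 0. These differences between the groups were not tested, since each rests on 1 library per group.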

How the results depend on the processing

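With 1 library per group, no replicate spread limits these values, and depth limits them through 1 to 11 reads of Lamp3 and 1 to 16 of Slc34a2. No paired analysis was possible because each group has 1 library. Of the 10 genes and their sum, only Napsa changed direction under another scaling, minimum, pseudocount or depth: for cancer exercise vs. cancer control it differed by -0.44 with library size scaling and -0.49 when thinned, and for cancer control vs. normal control by -0.08 with library size scaling and with sizes that left out genes over 1% of a library. Of the values that answer a comparison, 195 were labelled the same and 33 moved. Counts of called genes have no spread with 1 library per group, and a small change of a count was labelled the same. With a pseudocount of 4, for example, 4 of the 10 genes were called lower in normal exercise vs. normal control in place of 5. Of the values of single genes, 183 lay within their counting interval and 17 moved, 7 with library size scaling, 9 when thinned and 1 with a pseudocount of 4. Thinned, Sftpc differed by 1.29, Sftpa1 by 1.16, Scgb1a1 by 1.18 and Ager by 0.30 for cancer exercise vs. cancer control, and by 2.36, 1.97, 2.90 and 1.07 for cancer exercise vs. normal exercise, where library size scaling gave 2.47 for Sftpc, 2.92 for Scgb1a1 and 1.47 for Ager. Scgb1a1 thinned differed by -0.56 for cancer control vs. normal control, and Sftpd with a pseudocount of 4 by 3.23 for cancer exercise vs. normal exercise. Without Scgb1a1, the sum of the other 9 genes differed by -1.22, 0.33 and 3.16 for normal exercise vs. normal control, cancer control vs. normal control and cancer exercise vs. normal exercise, so that the second turned from -0.13, because Scgb1a1 holds most of the reads. Scaled to library size, the sum differed by 1.12 for cancer exercise vs. cancer control and 2.73 for cancer exercise vs. normal exercise, with the median of all genes at -0.60 and -0.74. Thinned to the smallest library and scaled to library size, the sum differed by 1.10 and 2.67 in these comparisons and by -0.30 for cancer control vs. normal control. With a minimum of 16 normalized reads, 3 of the 10 genes were called lower in normal exercise vs. normal control. Sftpd and Slc34a2, called at the main minimum, lay below 16 in both libraries. For cancer control vs. normal control, 0 were called higher and 0 lower with that minimum, and also with a pseudocount of 4. There Cldn18 and Slc34a2 lay below 16 in both libraries. The share of all genes called under these alternatives is not given here, so the counts have no background beside them. Of the other lung epithelial genes, with library size scaling 4 were called higher in normal exercise vs. normal control, 11 lower in cancer exercise vs. cancer control (median -0.47) and 9 lower in cancer exercise vs. normal exercise (median -0.64). Thinned, the last 2 had 10 and 7 lower (medians -0.58 and -0.47). The medians of all genes in these 2 comparisons were -0.60 and -0.74, both with library size scaling and when thinned. With no minimum, 5 were higher and 8 lower in normal exercise vs. normal control (median -0.03), 10 lower in cancer control vs. normal control, 14 higher in cancer exercise vs. cancer control and 18 higher in cancer exercise vs. normal exercise. With a minimum of 16, 1 was higher in the first, 7 higher and 2 lower in the second, 5 higher and 3 lower in the third and 7 higher in the fourth. The count minimum does not enter a sum, and each symbol had 1 value, so that alternative gave no other result. The cause of the other moves was not tested.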
